A study of Mus musculus with 24 samples.

Results

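The 9 genes described here encode the enzymes that write, copy and remove DNA methylation in mouse: the de novo methyltransferases Dnmt3a and Dnmt3b with their catalytically inactive cofactor Dnmt3l, the maintenance methyltransferase Dnmt1 with its recruiter Uhrf1, the dioxygenases Tet1, Tet2 and Tet3, and the glycosylase Tdg. They were listed by name, and all 9 were found among the 35591 genes of the count table. All 9 passed the filter on low counts in every comparison. RNA was sequenced from male mouse embryonic stem cell (mESC) lines as they were differentiated into neuromesodermal progenitors (NMPs), the cells of the embryonic tailbud that give rise to spinal cord and trunk mesoderm. Of 6 lines, 3 were Smchd1[fl/+], called wild-type (wt), and 3 were Smchd1[del/+], heterozygous (het). Every line was sampled on days 0, 2, 2.5 and 3, which gives 24 libraries in 8 groups of 3 lines. All lines came from separate blastocysts of Castaneus Smchd1 +/+ mothers and C57BL/6 Smchd1 del/fl fathers that carried an MMTV-Cre transgene (mouse mammary tumour virus promoter), so the floxed or deleted allele was the paternal one. Whether a line itself inherited the transgene is not given in the labels. Day 0 cells carry the label DME LIF (LIF, leukaemia inhibitory factor). They had been moved stepwise from 2i with LIF towards serum medium with LIF. The last mixture described before seeding still held some 2i medium, which contains CHIR99021, the compound used later to activate the Wnt pathway. Day 2 cells were in N2B27 with basic fibroblast growth factor. From day 2 the Wnt pathway was activated with CHIR99021, so day 2.5 lies 12 h after Wnt activation and day 3 is the NMP stage.

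As background, DNA methylation in mammals sits mostly on cytosines of CpG dinucleotides. DNMT3A and DNMT3B set new marks, and DNMT3L binds and stimulates them in the germ line and in early pluripotent cells. After replication UHRF1 recognises hemimethylated CpGs and brings in DNMT1, which copies the mark to the new strand. The TET enzymes oxidise 5-methylcytosine stepwise, and TDG excises the later oxidation products, which base excision repair then replaces with cytosine. In mESCs, naive conditions hold methylation low, and the exit from naive pluripotency is known for a wave of new methylation. Only transcripts were measured here, not enzyme activity or methylation.

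The targeted gene Smchd1, a chromatin protein of the SMC family, was lower in every het library than in every wt library of the same day. On day 0 it stood at 131, 148 and 149 CPM (counts-per-million, scaled with TMM factors) in wt lines 1, 2 and 3, and at 102, 89.7 and 94.1 CPM in the het lines. Log2 differences and log2 fold changes are given ± SE throughout. Those of Smchd1, het over wt, were -0.61 ± 0.081 (adjusted p = 0.063) on day 0, -0.75 ± 0.09 (adjusted p = 0.00253) on day 2, -0.60 ± 0.11 (adjusted p = 0.914) on day 2.5 and -0.88 ± 0.10 (adjusted p = 0.014) on day 3, by edgeR's quasi-likelihood test with Benjamini-Hochberg adjustment over all genes tested. Leaving out 1 line at a time moved its adjusted p between 0.000545 and 0.291 on day 3, where the call was lost without wt line 2, wt line 3, het line 1 or het line 3. The day 2 call was lost without het line 1, the day 0 difference was called without wt line 1 or wt line 2, and that of day 2.5 without wt line 1. The differences of days 0 and 2.5 were also called by DESeq2's Wald test (adjusted p = 2.07e-07 and 0.0389), with no count filter (7.51e-08 and 0.00539) and in one fit of all 24 libraries (0.0105 and 0.00841). Library totals ran from 7102655 counts (wt line 2 on day 2.5) to 20818018 counts. The summed level of 6 naive pluripotency markers (Zfp42, Klf4, Esrrb, Tbx3, Tfcp2l1 and Nr0b1) was 896 to 1027 CPM on day 0 and 69.3 to 122 CPM on the later days. That of 5 NMP markers (T, Cdx2, Cdx1, Nkx1-2 and Cyp26a1) was at most 27.7 CPM up to day 2 and 429 to 1191 CPM on days 2.5 and 3. The cultures also held endoderm marker transcripts, which differed between lines. The sum of 15 of these on day 2 was 6538, 9448 and 13524 CPM in the wt lines and 3999.6, 5526 and 5182 CPM in the het lines, with the yolk sac markers Afp and Ttr at or near 0. From day 0 to day 2, 9 of the 13 testable endoderm markers rose in wt and 10 of 13 in het, as did 22.4% and 27.9% of all genes tested. The 4 trophoblast and the 4 fibroblast markers summed to at most 44.4 and 46.5 CPM. In bulk RNA, fewer cells of a type and less RNA per cell cannot be told apart.

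The 9 enzymes differed widely in level, and their order changed from day 0 to day 3. Levels of different genes are compared per length, as CPM per kilobase of the union of annotated exons, mean ± SD of 3 lines. On day 0 in wt, Dnmt3l was at 353 ± 33.8, Dnmt3b at 184 ± 6.30 and Uhrf1 at 99.8 ± 4.68 CPM per kilobase. Dnmt1 (48.8 ± 1.78), Tet1 (34.8 ± 2.08) and Dnmt3a (28.6 ± 0.795) came next on the same scale. Tet2 (7.70 ± 0.461), Tdg (6.87 ± 0.601) and Tet3 (0.987 ± 0.182) were the lowest, and only the ranges of Tet2 and Tdg overlapped among neighbours in this order. By day 3 in wt, Uhrf1 led at 71.8 ± 2.13 CPM per kilobase, ahead of Dnmt1 (34.3 ± 1.65), Dnmt3b (31.6 ± 4.01) and Dnmt3l (28.2 ± 4.25), whose neighbouring ranges overlapped. Dnmt3a (7.55 ± 1.30) and Tdg (7.45 ± 0.215) overlapped as well, followed by Tet1 (5.95 ± 0.510), Tet3 (2.75 ± 0.407) and Tet2 (1.26 ± 0.138). The het lines had the same order on day 0. On day 3 their order differed from that in wt only among Dnmt3b, Dnmt3l and Dnmt1, at 40.2 ± 6.34, 36.6 ± 17 and 33.1 ± 2.82 CPM per kilobase. With the longest annotated transcript as the length, Dnmt3a passed Tet1 on day 0 in both genotypes, and on day 3 Dnmt3l came second to Uhrf1 in both.

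**Figure D1:**
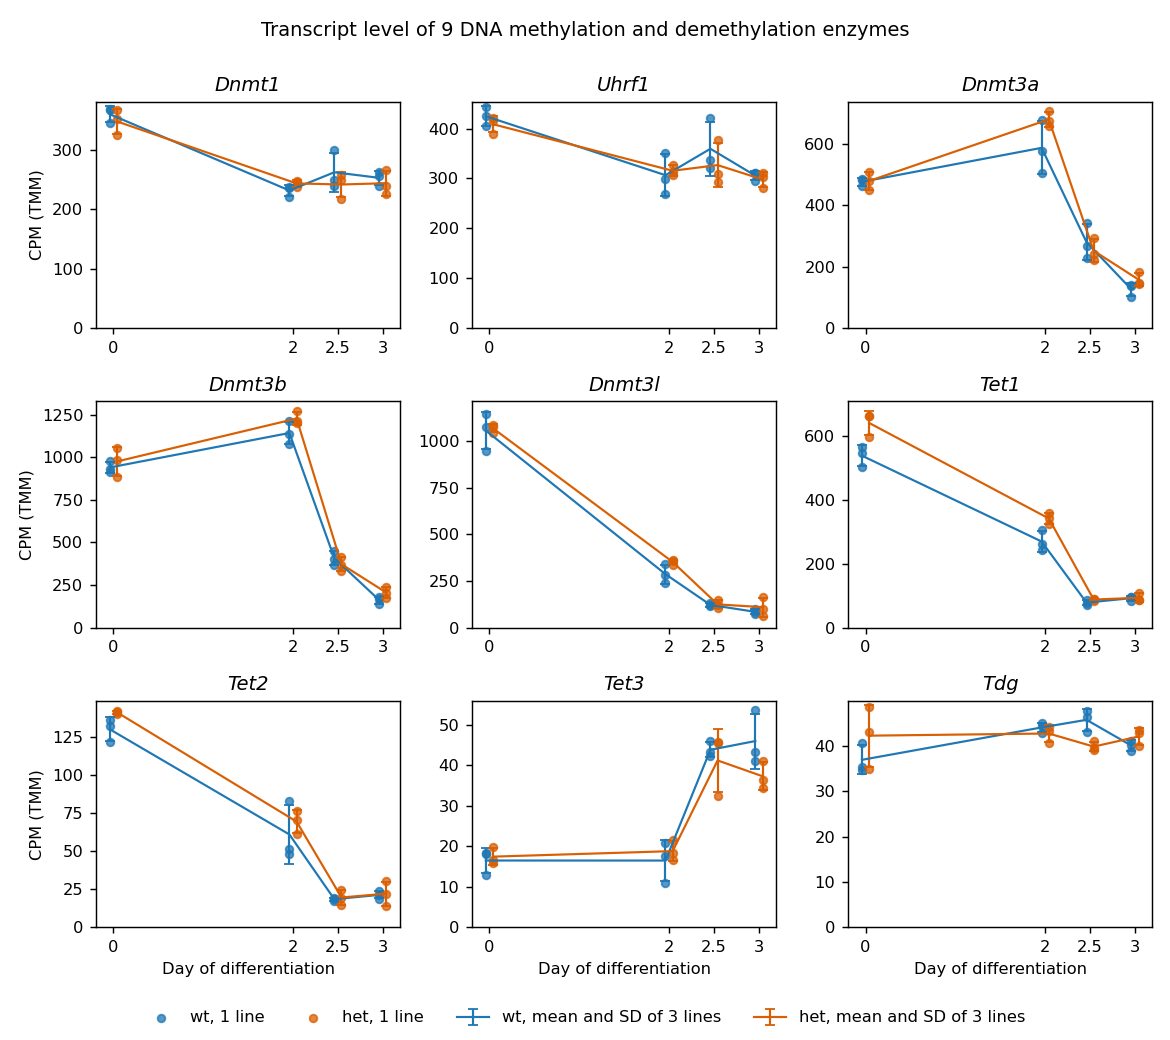
Transcript level of the 9 enzymes (y axis, TMM-scaled CPM, starting at 0) against the day of differentiation (x axis), with 1 point per line, wt in blue and het in orange, and lines and bars for the mean and SD of 3 lines. Dnmt3a and Dnmt3b peaked on day 2, Dnmt3l, Tet1 and Tet2 fell from day 0, Tet3 rose between days 2 and 2.5, and Tdg stayed between 34.7 and 48.6 CPM in all 24 libraries.

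The maintenance pair Dnmt1 and Uhrf1 fell modestly on leaving the mESC state and passed the test at neither of the later steps. Dnmt1 (chr9:20907209-20959888, minus strand, coordinates in GRCm38) stood at 367, 345 and 369 CPM in the 3 wt lines on day 0 and at 221, 238 and 236 CPM on day 2. In het it went from 367, 352 and 326 to 245, 249 and 237 CPM, so the days did not overlap in either genotype. The log2 fold change was -0.63 ± 0.089 (adjusted p = 5.3e-05) in wt and -0.50 ± 0.058 (adjusted p = 1.82e-06) in het. Uhrf1 (chr17:56303321-56323486, plus strand), the reader of hemimethylated CpG, went from 426, 404 and 444 to 299, 269 and 352 CPM in wt and from 416, 421 and 390.1 to 306, 313 and 328 CPM in het. Its log2 fold changes of -0.46 ± 0.11 (adjusted p = 0.00237) and -0.36 ± 0.055 (adjusted p = 3.8e-05) passed the test. At the next steps, where neither gene passed it, the log2 fold changes were between -0.24 and 0.24. In wt, Dnmt1 on day 2.5 (299.8, 249 and 239 CPM) lay above day 2 in all 3 lines without overlap, and Uhrf1 on day 3 (311, 311 and 295 CPM) lay below day 2.5 (422, 337 and 320.2 CPM) without overlap, whereas in het these days overlapped. On day 3 Dnmt1 was at 256, 239.7 and 263 CPM in wt and 267, 226 and 239 CPM in het. The fit put Dnmt1 at 70.7% of day 0 in wt and 70.8% in het, and Uhrf1 at 72.5% and 73.7%. Of the 75-base stretches of the longest Uhrf1 transcript, 88.7% occur in no other annotated transcript, so a part of its reads could also map to a near-identical copy (Gm5648).

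The de novo genes Dnmt3a and Dnmt3b rose slightly to day 2 and then fell steeply after Wnt activation. Dnmt3b (chr2:153649450-153687730, plus strand) was at 929, 977 and 916 CPM in the wt lines on day 0 and at 1079, 1212 and 1138 CPM on day 2. It was then at 452, 403 and 369.8 CPM on day 2.5 and 178, 139 and 168 CPM on day 3, with no overlap between any consecutive days. The het lines followed the same course, with 1272, 1201 and 1212 CPM on day 2, 334, 367 and 414 CPM on day 2.5 and 175, 239 and 200.5 CPM on day 3. In the 12 h after Wnt activation the log2 fold change was -1.47 ± 0.11 (adjusted p = 3.82e-07) in wt and -1.73 ± 0.086 (adjusted p = 9.75e-10) in het, a fall of 2.78-fold and 3.31-fold. Over the next 12 h it was -1.35 ± 0.12 (adjusted p = 0.000118) in wt and -0.89 ± 0.12 (adjusted p = 0.000276) in het. The small rise from day 0 to day 2 was 0.29 ± 0.085 (adjusted p = 0.0126) in wt and 0.35 ± 0.058 (adjusted p = 7.99e-05) in het, and without wt line 3 the wt value was 0.25 (adjusted p = 0.194). The 4 formative epiblast markers (Fgf5, Otx2, Pou3f1 and Fgf15) also had a higher summed level up to day 2 than after it, at 114 to 136 CPM in wt on day 0, 119 to 159 on day 2, 13.6 to 18.5 on day 2.5 and 12.8 to 22.1 on day 3. In het the sums were 102 to 129.7, 132 to 166, 17.6 to 19.6 and 22.1 to 28.9 CPM, and all 4 markers fell across Wnt activation in both genotypes. At that step 14.6% of all genes tested were called lower in wt and 23.1% in het. Unlike Dnmt3b, the sum was not lower on day 3 than on day 2.5, with overlapping values in wt and higher ones in het. Their part in the Dnmt3a and Dnmt3b values was not tested. Dnmt3b shares part of its sequence with its rodent paralog Dnmt3c: 92.3% of the 75-base stretches of its longest transcript are its own.

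Dnmt3a (chr12:3806007-3914443, plus strand) moved in step with Dnmt3b, with 461, 485 and 483 CPM in wt on day 0, 679, 506 and 578 on day 2, 343, 268 and 229 on day 2.5 and 139.8, 101 and 136 on day 3. In het the values were 509, 449 and 480.5, then 674, 707 and 659, then 222, 239.8 and 293, and on day 3 148, 182 and 143 CPM. Day 2 was the highest and day 3 the lowest in both genotypes, and no consecutive days overlapped. Over the first 12 h of Wnt activation its log2 fold change was -1.06 ± 0.15 (adjusted p = 0.000246) in wt and -1.44 ± 0.10 (adjusted p = 2.33e-08) in het. Over the following 12 h it was -1.16 ± 0.16 (adjusted p = 0.00141) and -0.71 ± 0.12 (adjusted p = 0.00126). Only 0.799% of its exon bases overlap a gene on the other strand (Dnmt3aos). Its rise to day 2 was 0.52 ± 0.056 (adjusted p = 6.45e-07) in het. In wt it was 0.31 ± 0.11 (adjusted p = 0.0271). Without line 1 the wt rise was smaller and not called, at 0.18 (adjusted p = 0.201). Without line 3 it was not called either, though its size was still 0.31 (adjusted p = 0.174). In one fit of all 24 libraries the wt rise was 0.30 (adjusted p = 0.0829). Wt line 1 held both the highest Dnmt3a level on day 2 and the lowest endoderm marker sum among wt lines, and the part of the latter in the former was not tested.

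Dnmt3l (chr10:78041947-78063622, plus strand) had the largest fall of the 9 enzymes from day 0 to day 3, and unlike Dnmt3a and Dnmt3b it fell from the first step on. From 947, 1075 and 1146 CPM in wt on day 0 it went to 339, 239 and 280.1 on day 2, 114, 119.7 and 131 on day 2.5 and 82.6, 72.4 and 97.6 on day 3. In het it went from 1073, 1086 and 1045 to 360.1, 358 and 336, then 104, 146 and 123, and on day 3 63.3, 164 and 101 CPM. No consecutive days overlapped in wt, whereas in het days 2.5 and 3 did. The log2 fold change from day 0 to day 2 was -1.87 ± 0.12 (adjusted p = 3.33e-08) in wt and -1.59 ± 0.05 (adjusted p = 4.04e-13) in het, and from day 2 to day 2.5 it was -1.23 ± 0.13 (adjusted p = 1.34e-05) and -1.51 ± 0.10 (adjusted p = 3.63e-08). Over the whole course Dnmt3l fell 12.5-fold in wt (log2 fold change -3.64 ± 0.12, adjusted p = 2.39e-10) and 9.64-fold in het (-3.27 ± 0.39, adjusted p = 0.00136). The last step was -0.54 ± 0.12 (adjusted p = 0.0122) in wt and -0.22 ± 0.34 (adjusted p = 0.683) in het. Without wt line 2 the wt value was -0.46 (adjusted p = 0.169), and in one fit of all 24 libraries -0.54 (adjusted p = 0.105). On day 3 het line 2 was high for Dnmt3l, and its summed Pou5f1 and Sox2 level was also the highest, 309.8, 401 and 306 CPM in het lines 1, 2 and 3, while its NMP marker sum was the lowest, 808, 429 and 560.5 CPM. The part of these in the Dnmt3l value was not tested. Without het line 2 the het change over the last step was -0.50 (adjusted p = 0.114). Of the Dnmt3l exon bases, 2.24% overlap a gene on the other strand (Aire).

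The 3 DNMT3 genes and Tet2 all ended far below their day 0 level, and the sequence just before their annotated starts is shown because CpG, the substrate of the enzymes, is spread very unevenly over these windows. Each line gives the 250 bases before a start listed by RefSeq (GRCm38.p6), 5′ to 3′, with CpG dinucleotides in capitals. For Dnmt3a and Dnmt3l, which have 3 listed starts each, a window that holds no annotated exon was taken (the first and the second listed start).
Dnmt3a (chr12:3806730-3806979, plus strand): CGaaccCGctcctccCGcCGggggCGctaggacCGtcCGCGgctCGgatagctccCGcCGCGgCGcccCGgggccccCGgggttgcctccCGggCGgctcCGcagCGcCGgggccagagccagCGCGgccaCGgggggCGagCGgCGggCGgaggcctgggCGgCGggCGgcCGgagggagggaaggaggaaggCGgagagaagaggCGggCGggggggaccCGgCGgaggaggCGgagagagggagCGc
Dnmt3b (chr2:153649199-153649448, plus strand): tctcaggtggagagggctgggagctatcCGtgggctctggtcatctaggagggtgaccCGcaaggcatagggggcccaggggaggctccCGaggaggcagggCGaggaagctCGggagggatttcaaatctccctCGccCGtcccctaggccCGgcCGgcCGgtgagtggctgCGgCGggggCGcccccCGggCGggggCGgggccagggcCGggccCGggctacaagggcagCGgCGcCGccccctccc
Dnmt3l (chr10:78049592-78049841, plus strand): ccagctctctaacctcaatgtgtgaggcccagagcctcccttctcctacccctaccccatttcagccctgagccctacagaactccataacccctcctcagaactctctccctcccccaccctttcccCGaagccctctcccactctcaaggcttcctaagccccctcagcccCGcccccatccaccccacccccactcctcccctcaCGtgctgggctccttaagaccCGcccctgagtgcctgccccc
Tet2 (chr3:133544391-133544640, minus strand): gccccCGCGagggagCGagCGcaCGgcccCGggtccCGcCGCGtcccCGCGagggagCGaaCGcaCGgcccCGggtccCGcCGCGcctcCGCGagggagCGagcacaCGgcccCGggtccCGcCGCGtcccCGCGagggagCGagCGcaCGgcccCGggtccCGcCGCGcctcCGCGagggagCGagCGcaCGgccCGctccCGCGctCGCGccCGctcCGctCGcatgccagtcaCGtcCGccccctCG
The windows hold 38 CpGs for Dnmt3a, 21 for Dnmt3b, 4 for Dnmt3l and 51 for Tet2, and that of Tet1, not printed, holds 15. The count depends on the start, since the windows of the other starts hold 40 and 15 for Dnmt3a and 5 and 3 for Dnmt3l. Over the first listed start of all 27025 genes the median was 6, with quartiles of 2 and 16. The TCF/LEF core CTTTGAT, searched on both strands because Wnt signalling acts through TCF/LEF factors, was in none of the 16 windows of the 9 genes. It was in 3.23% of the windows of all genes, so its absence from so few windows is a description only.

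Tet1 and Tet2 fell at both of the first steps and Tet3 rose at the second. Tet1 (chr10:62804570-62908996, minus strand), the main TET enzyme of mESCs, stood at 502, 564 and 546 CPM in wt on day 0, 304, 261 and 242 on day 2, 76.7, 69.7 and 87.4 on day 2.5 and 82.9, 96.3 and 96.8 on day 3. In het it stood at 597, 659.8 and 662, then 342, 322 and 359, then 84.2, 89.9 and 88.5, and on day 3 85.3, 109 and 85.0 CPM. Days 0, 2 and 2.5 did not overlap within either genotype. The log2 fold change to day 2 was -0.99 ± 0.10 (adjusted p = 2.76e-06) in wt and -0.89 ± 0.059 (adjusted p = 2.1e-09) in het, and after Wnt activation -1.77 ± 0.13 (adjusted p = 2.59e-07) and -1.97 ± 0.079 (adjusted p = 1.1e-10). Tet2 (chr3:133463679-133545139, minus strand), which lacks the CXXC domain of the other two, went from 121, 132 and 136 CPM in wt on day 0 to 83.0, 48.0 and 51.6 on day 2 and 17.4, 18.8 and 19.0 on day 2.5. In het it went from 140.2, 141 and 142 to 76.5, 70.0 and 61.4, and then to 19.4, 24.3 and 14.8 CPM, so that these 3 days did not overlap in either genotype. Its log2 fold changes were -1.08 ± 0.17 (adjusted p = 0.000171) and -1.01 ± 0.083 (adjusted p = 2.75e-08) to day 2, and -1.72 ± 0.20 (adjusted p = 3.92e-05) and -1.83 ± 0.16 (adjusted p = 3.19e-07) after it. From day 2.5 to day 3 neither gene passed the test. By day 3 Tet1 was 5.80-fold and 6.79-fold, and Tet2 6.08-fold and 6.32-fold, below day 0 in wt and het.

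Tet3 (chr6:83362373-83459084, minus strand), the TET enzyme best known from the zygote and from neural tissue, was the one member called higher across Wnt activation. It was low on day 0, at 13.0, 18.3 and 18.1 CPM in wt and 15.9, 16.7 and 19.7 CPM in het. On day 2 it was at 11, 20.7 and 17.6 CPM in wt and 16.6, 18.4 and 21.4 CPM in het, values that overlapped with day 0. On day 2.5 it reached 46.0, 42.3 and 43.2 CPM in wt and 45.7, 32.3 and 45.5 CPM in het, above every library of day 2. The log2 fold change was 1.43 ± 0.21 (adjusted p = 0.000191) in wt, or 2.69-fold, and 1.13 ± 0.16 (adjusted p = 3.46e-05) in het, or 2.19-fold. On day 3 the level was 41.0, 53.7 and 43.3 CPM in wt and 41.2, 34.3 and 36.4 CPM in het. The last step did not pass the test, with 0.06 ± 0.14 (adjusted p = 0.8) and -0.18 ± 0.13 (adjusted p = 0.339).

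Tdg (chr10:82629828-82650799, plus strand), the glycosylase that removes oxidised methylcytosine, passed the test at no step in either genotype. Its adjusted p was between 0.133 and 0.956. Wt lines were at 40.6, 34.7 and 35.4 CPM on day 0 and 40.2, 41.1 and 38.8 on day 3, and het lines at 43.1, 48.6 and 35.0 CPM on day 0 and 42.7, 43.5 and 39.9 on day 3, so these days overlapped in both genotypes. In wt, however, day 2 (42.9, 45.0 and 44.3 CPM) lay above day 0, and day 3 lay below day 2.5 (46.5, 43.0 and 47.8 CPM), without overlap. In het all consecutive days overlapped. Its log2 fold change over the whole course was 0.13 ± 0.13 in wt and 0.008 ± 0.11 in het. These values are uncertain, since only 44.2% of the 75-base stretches of the longest Tdg transcript are found in no other annotated transcript, and Tdg-ps, Gm9855 and Gm5597 are among the genes that share the rest. In addition, 6.83% of the Tdg exon bases overlap a gene on the other strand (Glt8d2).

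Counted over the 9 members, an adjusted p under 0.05 was reached by 2 higher and 5 lower genes from day 0 to day 2, in wt and in het alike. The background was high, since 22.4% of the 15521 genes tested in wt were called higher and 21.9% lower, and in het 27.9% and 28.2% of 15303. From day 2 to day 2.5, 1 member rose and 5 fell in each genotype, against 14.8% higher and 14.6% lower of all genes tested in wt and 21.8% and 23.1% in het. The last step gave 3 lower members in wt (Dnmt3a, Dnmt3b and Dnmt3l) against a background of 9.22% higher and 10.4% lower, and 2 lower in het (Dnmt3a and Dnmt3b) against 13.8% and 16.1%. Without wt line 2, Dnmt3b alone was called in wt at this step, with Dnmt3a at -1.06 (adjusted p = 0.0715), while 29 genes in all were called. Between day 0 and day 3, 1 member was higher and 7 were lower in each genotype, against 27% higher and 26.6% lower of all genes in wt and 32.8% and 31.7% in het. The median log2 fold change of the members over this span was -1.91 in wt and -1.59 in het, and that of all genes tested was 0.03 and 0.023.

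**Figure D2:**
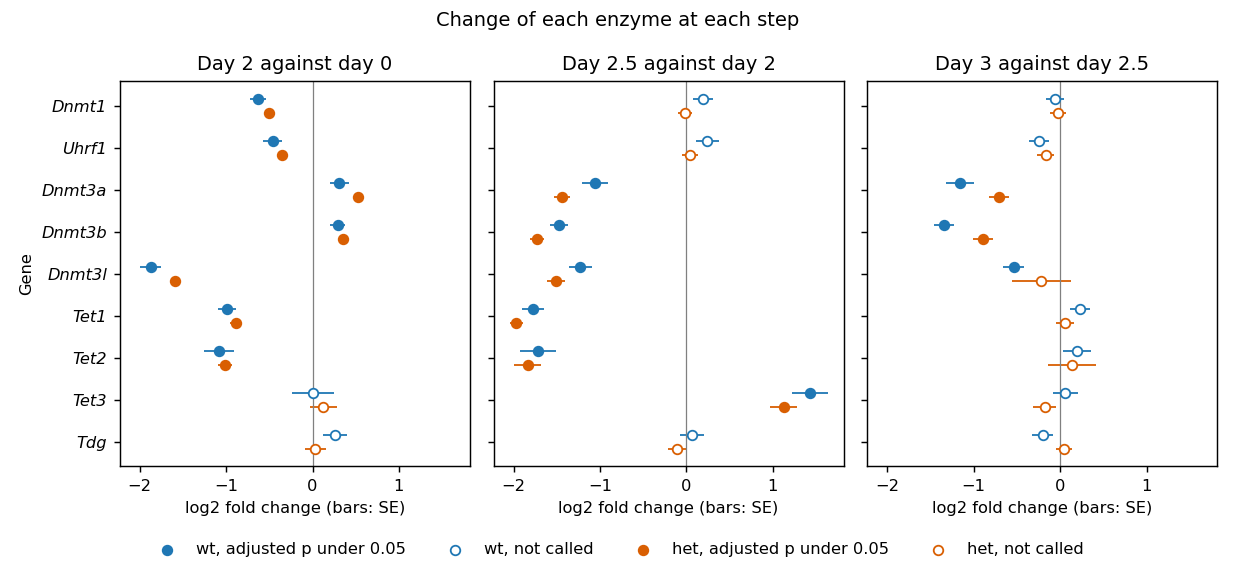
log2 fold change of each enzyme (x axis, bars show SE, 3 lines per group) at the 3 consecutive steps, wt in blue and het in orange, filled where the adjusted p was under 0.05. The 5 genes Dnmt3a, Dnmt3b, Dnmt3l, Tet1 and Tet2 lie below 0 and Tet3 above it at the step across Wnt activation in both genotypes.

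The make-up of each family differed between days. Among the TET transcripts, Tet1 made up 80.0% ± 0.532 of the summed CPM per kilobase in wt on day 0 and 79.2% ± 1.28 on day 2 (SD, n = 3). Its share was then 57.4% ± 2.62 on day 2.5 and 59.7% ± 1.94 on day 3. Tet3 went from 2.26% ± 0.293 on day 0 to 30.1% ± 2.13 on day 2.5 and 27.6% ± 2.56 on day 3. In het the Tet3 share was 2.05% ± 0.174 on day 0, 26.5% ± 4.74 on day 2.5 and 23.7% ± 4.56 on day 3, and that of Tet1 81.5% ± 0.709 and 62.9% ± 1.68 on days 0 and 3. The summed TET level itself went from 43.4 ± 2.66 to 9.96 ± 0.691 CPM per kilobase in wt, so Tet1 remained the largest part of a smaller sum. These shares are described without a test.

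In the DNMT3 family the leading transcript on day 0 was not the leading one on day 2. Dnmt3l made up 62.3% ± 2.33 of the summed CPM per kilobase in wt on day 0 and Dnmt3b 32.6% ± 2.15. On day 2 Dnmt3b made up 63.2% ± 5.23 and Dnmt3l 26.9% ± 4.02, and no library of one overlapped with the other on either day. The het lines gave 61.9% ± 2.20 Dnmt3l and 33.1% ± 2.02 Dnmt3b on day 0, and 29.5% ± 0.635 and 60.3% ± 0.976 on day 2. By day 3 the shares were 47.0% ± 2.26 Dnmt3b and 41.8% ± 2.64 Dnmt3l in wt, and 47.7% ± 5.85 and 41.0% ± 7.88 in het. Which of them leads on day 3 depends on the length used: with the longest transcript, Dnmt3l had the larger share in both genotypes. Dnmt3a was at 5.07% ± 0.183 on day 0 and 11.2% ± 0.656 on day 3 in wt.

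**Figure D3:**
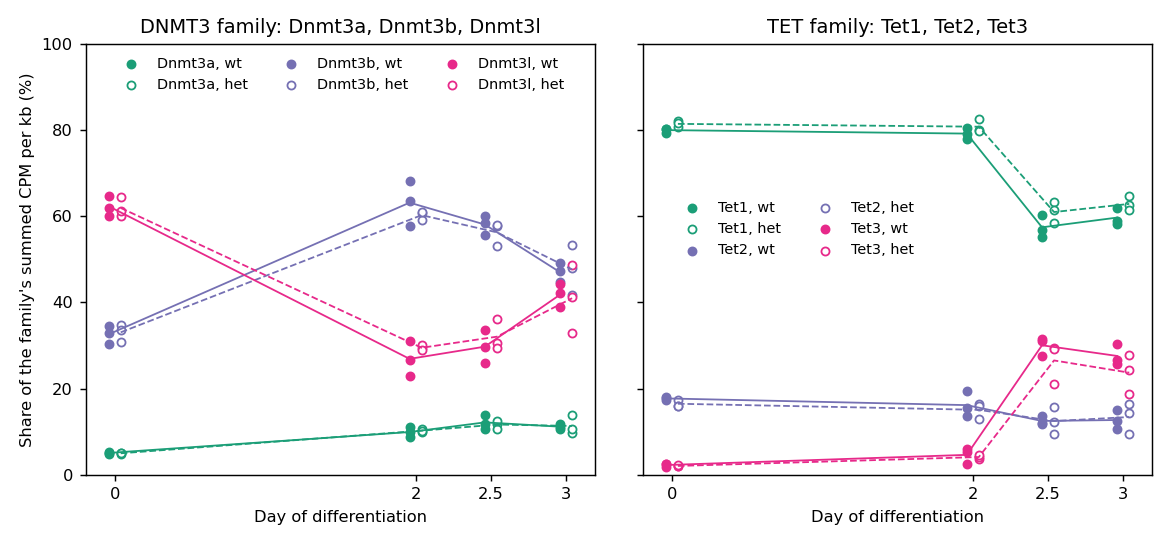
Share of each member in the summed CPM per kilobase of exon (y axis, percent) of the DNMT3 family on the left and the TET family on the right, against the day of differentiation (x axis), with 1 point per line, filled for wt and open for het, and lines through the means of 3 lines. Dnmt3b and Dnmt3l exchange places between days 0 and 2, and the Tet3 share goes from 2.26% to 30.1% in wt between days 0 and 2.5.

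Over the 24 libraries, which share lines and days, the members fell into groups by Pearson correlation of log2 CPM. Dnmt3a and Dnmt3b were the closest pair (r = 0.99). Tet1 and Tet2 (r = 0.98) lay close to Dnmt3l (r = 0.96 and 0.97), closer than Dnmt3l lay to Dnmt3a (0.76) or Dnmt3b (0.81). Dnmt1 and Uhrf1 formed another pair (r = 0.87). Tet3 ran opposite to Tet1 (r = -0.90) and Tet2 (r = -0.91), and Tdg lay between -0.29 and 0.071 with the other members. Among the 17543 genes that passed the count filter, the 3 most like Dnmt3a were Rbpms2 (r = 0.99), Maf1 (r = 0.97) and Pipox (r = 0.97), and those most like Dnmt3b were Rbpms2 (r = 0.98), Ptpn3 (r = 0.98) and Pcyt1b (r = 0.97). Dnmt3l was nearest to Folr1 (r = 0.99), Liph (r = 0.99) and Jarid2 (r = 0.99). For Tet1 they were Morc3 (r = 0.99), Slc20a1 (r = 0.99) and Klf9 (r = 0.98), and for Tet2 Slc20a1 (r = 0.99), 9830144P21Rik (r = 0.98) and Usp28 (r = 0.98). Tet3 was nearest to Wnt8a (r = 0.95), Ppp2r5d (r = 0.95) and Cpne1 (r = 0.95), Dnmt1 to Chd4 (r = 0.95), Agtrap (r = 0.95) and R3hdml (r = 0.95), Uhrf1 to Sf3b2 (r = 0.94), Arhgdia (r = 0.91) and Supt5 (r = 0.91) and Tdg to Cnih3 (r = 0.71), 9530080O11Rik (r = 0.64) and Fitm1 (r = 0.62). All are descriptions over the same libraries, with the day of differentiation varying across them.

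Most genes listed as regulators of methylation in stem cells fell, as did Tet1, Tet2 and Dnmt3l, on leaving day 0. Of 9 such regulators (Dppa3, Prdm14, Zfp57, Trim28, Ehmt2, Nsd1, Ogt, Cxxc4 and Cxxc5), 8 were testable from day 0 to day 2, and 7 fell and 0 rose in wt, as in het. Their median log2 fold change was -1.63 in wt and -1.38 in het, against 0.024 and 0.0055 over all genes tested, of which 21.9% in wt and 28.2% in het were called lower. Prdm14, which represses the de novo enzymes in naive cells, went from 10.5 ± 0.946 to 0.957 ± 0.330 CPM in wt (mean ± SD, n = 3). Its log2 fold change was -3.44 ± 0.37 (adjusted p = 3.7e-06) in wt and -3.57 ± 0.47 (adjusted p = 7.24e-06) in het. Dppa3, which keeps UHRF1 from chromatin, changed by -2.85 ± 0.18 (adjusted p = 2.41e-08) and -2.45 ± 0.12 (adjusted p = 5.37e-11). Zfp57, which protects imprints, was among the largest falls by day 3, at -2.68 ± 0.10 (adjusted p = 6.46e-10) and -2.64 ± 0.17 (adjusted p = 4.59e-06). After Wnt activation, 1 of 9 fell and 1 rose in wt (Trim28, a corepressor recruited by ZFP57, 0.41 ± 0.13, adjusted p = 0.0241), and in het 3 of 7 fell and 1 rose. Of all genes tested at that step, 14.6% fell and 14.8% rose in wt, and 23.1% and 21.8% in het.

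Partners of the maintenance pair behaved unevenly. Of 6 (Uhrf2, Usp7, Pcna, Lig1, Hells and Cdca7), 1 rose and 3 fell to day 2 in wt, and 1 and 4 in het, with medians of -0.19 and -0.28. Over all genes 22.4% rose and 21.9% fell in wt and 27.9% and 28.2% in het, so that the partners' counts in so few genes are a description only. The one that rose was Uhrf2, the paralog of Uhrf1, which went the opposite way to Uhrf1: from 48.7 ± 5.45 CPM on day 0 to 111 ± 7.30 on day 2 and 171 ± 4.71 on day 3 in wt (mean ± SD, n = 3). Its log2 fold change over the course was 1.82 ± 0.11 (adjusted p = 2.07e-08) in wt and 1.70 ± 0.081 (adjusted p = 3.01e-10) in het. After Wnt activation 3 partners rose and 1 fell in wt, and 3 and 2 in het, where 14.8% of all genes rose and 14.6% fell in wt and 21.8% and 23.1% in het.

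Of 11 genes listed as base excision and repair partners, 5 rose and 4 fell to day 2 in wt and 3 and 5 in het. Their medians were -0.27 and -0.047. Of all genes, the same 22.4% rose and 21.9% fell in wt, and 27.9% and 28.2% in het. The largest rises at this step were in the glycosylase genes Neil3, at 1.92 ± 0.33 (adjusted p = 0.000292) in wt and 1.62 ± 0.28 (adjusted p = 0.000125) in het, and Neil2, at 1.63 ± 0.43 (adjusted p = 0.00615) and 1.43 ± 0.27 (adjusted p = 0.000246). Neil2 fell again across Wnt activation in wt, with -1.32 ± 0.30 (adjusted p = 0.00442). At that step 2 repair genes rose and 5 fell in wt and 3 and 6 in het, against 14.8% and 14.6% of all genes in wt and 21.8% and 23.1% in het. Gadd45a and Gadd45b, stress-induced proteins linked to active demethylation, fell, with log2 fold changes of -1.55 ± 0.18 (adjusted p = 2.53e-05) and -1.48 ± 0.27 (adjusted p = 0.001) in wt, and -1.45 ± 0.12 (adjusted p = 2.28e-07) and -1.73 ± 0.23 (adjusted p = 2.86e-05) in het. Apex1, the abasic site endonuclease, rose, with log2 fold changes of 0.66 ± 0.12 (adjusted p = 0.00118) in wt and 0.61 ± 0.082 (adjusted p = 2.92e-05) in het, and the scaffold Xrcc1 rose with 0.73 ± 0.18 (adjusted p = 0.00672) in wt. At the last step Gadd45b rose, with 1.74 ± 0.24 (adjusted p = 0.00126) in wt and 2.38 ± 0.19 (adjusted p = 2.09e-05) in het, while Apex1 fell in wt, with -0.79 ± 0.12 (adjusted p = 0.00159). Of the uracil glycosylases, Smug1 rose (0.73 ± 0.18, adjusted p = 0.0179 in wt and 0.83 ± 0.12, adjusted p = 0.000403 in het) and Ung fell (-1.01 ± 0.13, adjusted p = 0.000893 and -0.82 ± 0.10, adjusted p = 0.000144). Tdg, in contrast to these, passed the test at none of the steps. Genes given here for wt alone may also have changed in het, where they were not among the 3 largest called changes.

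The study made these lines as a control, to ask whether Hox gene changes came from loss of maternal SMCHD1 or from the heterozygous state. For the 9 enzymes no difference between het and wt passed the test on any day. On day 0 none of the 15108 genes tested was called (0%), with 1656 at an unadjusted p under 0.05 and 82 called by DESeq2's Wald test. Of the 9 members 1 (Tet1) had an unadjusted p under 0.05, and none was called by either tool. On day 2, 0.493% of 15414 genes were called (213 genes by DESeq2's Wald test). An unadjusted p under 0.05 was found for 1591 genes, 3 of them members (Tet1, Dnmt3l and Dnmt3a). On day 2.5 no gene was called (0%), with 814 genes and 0 members at an unadjusted p under 0.05 and 3 genes called by DESeq2's Wald test. On day 3, 0.00638% of 15686 genes were called, that is Smchd1 alone by edgeR, whereas DESeq2's Wald test called 107 genes. An unadjusted p under 0.05 was found for 1405 genes, 3 of them members (Dnmt3a, Dnmt3b and Tet3). Groups that did not overlap in CPM were found for 2 members on day 0 (Tet1 and Tet2, higher in het), 1 on day 2 (Tet1, higher), 1 on day 2.5 (Tdg, lower) and 1 on day 3 (Dnmt3a, higher). The shares among all genes tested on those days were 17%, 15.8%, 11.6% and 14%.

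Tet1 came nearest to a difference. Its het lines (597, 659.8 and 662 CPM) lay above the wt lines (502, 564 and 546 CPM) on day 0, and the log2 difference was 0.23 ± 0.063 (adjusted p = 0.328). On day 2 they again lay above, at 342, 322 and 359 against 304, 261 and 242 CPM, with 0.33 ± 0.092 (adjusted p = 0.151). On days 2.5 and 3 the groups overlapped, with 0.17 ± 0.11 (adjusted p = 0.914) and 0.008 ± 0.12 (adjusted p = 0.991). For Dnmt3l on day 2 the value was 0.29 ± 0.10 (adjusted p = 0.312). Both genes were called without wt line 1, at 0.43 (adjusted p = 0.0181) for Tet1 and 0.42 (adjusted p = 0.0248) for Dnmt3l, and Tet1 also when no count filter was applied (0.33, adjusted p = 0.018). Endoderm markers moved with this comparison: of 13 testable ones, 5 were called lower in het on day 2. Of all 15414 genes tested that day, 0.493% were called in either direction. The markers' median log2 difference was -1.05, against 0.0018 over all genes tested. The sum over all 15 ranged from 3999.6 to 5526 CPM in het and 6538 to 13524 CPM in wt. On day 0 their sum was 1010.1 to 1521 CPM in het and 1938 to 3323 CPM in wt. The sums overlapped on day 2.5 (4822 to 7122 CPM in het, 4632 to 12035 in wt) and on day 3 (3551 to 5811 and 4662 to 9238). The NMP marker sum was also lower in het on day 0 (4.91 to 6.36 against 6.42 to 10.5 CPM) and day 2 (11.6 to 13.8 against 21.8 to 27.7 CPM). The part of these markers in the Tet1 and Dnmt3l values was not tested.

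On day 3 the log2 differences were 0.32 ± 0.13 (adjusted p = 0.536) for Dnmt3a, 0.33 ± 0.13 (adjusted p = 0.49) for Dnmt3b and -0.31 ± 0.13 (adjusted p = 0.523) for Tet3. Without het line 2, the library high for Dnmt3l, they were 0.19 (adjusted p = 0.752), 0.20 (adjusted p = 0.696) and -0.27 (adjusted p = 0.668). Over all 9 members and 4 days the fitted differences lay between -0.31 and 0.37, with SEs from 0.063 to 0.33. The upper limit is Dnmt3l on day 3, which was -0.054 (adjusted p = 0.975) without het line 2. The members' median was 0.028, 0.17, -0.12 and 0.046 on days 0, 2, 2.5 and 3. A p that misses the threshold with 3 lines per genotype does not show that the levels were equal.

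**Figure D4:**
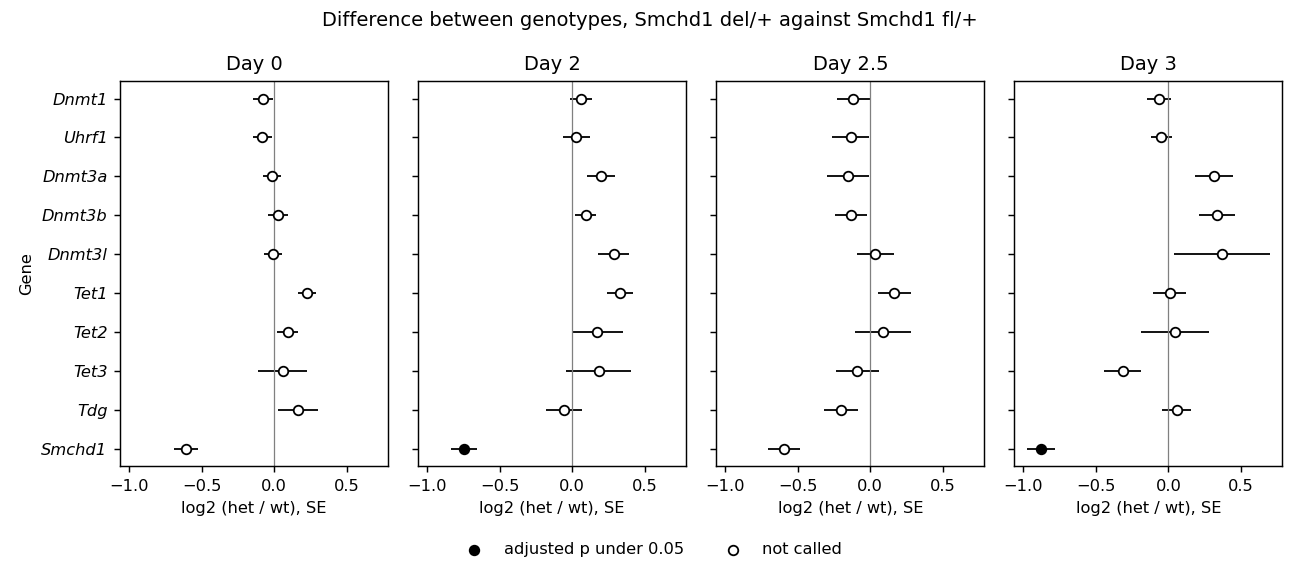
log2 difference between het and wt (x axis, bars show SE, 3 lines per genotype) of the 9 enzymes and Smchd1 on each day, filled where the adjusted p was under 0.05. Only Smchd1 is filled, on days 2 and 3. The enzymes lie between -0.31 and 0.37, and the upper limit, Dnmt3l on day 3, was -0.054 without het line 2.

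Whether a step itself differed between the genotypes was tested as an interaction, and 0 members and 0 genes in all were called at any of the 3 steps (0% of 16387, 0% of 16569 and 0% of 16486 genes tested). At an unadjusted p under 0.05 there were 1045, 847 and 623 genes, and DESeq2's Wald test called 8, 0 and 0. Among the members these were Dnmt3l for the step to day 2 (0.30 ± 0.13, adjusted p = 0.769) and Dnmt3b for the step to day 3 (0.47 ± 0.18, adjusted p = 1). Without het line 2 the Dnmt3b value was 0.33 (unadjusted p = 0.103 in edgeR). The larger fall of Dnmt3a and Dnmt3b in wt than in het over the last step (log2 fold changes -1.16 and -1.35 against -0.71 and -0.89) and the call of Dnmt3l in wt alone are therefore not shown to be differences between the genotypes.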

How the data were processed

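PolyA RNA was sequenced from 6 mESC lines on 4 days. Libraries were made with a stranded or a non-stranded TruSeq mRNA kit, and which library had which is not given in the sources used here. Per the submitters' processing notes and the study's methods, the authors trimmed reads with Trim Galore 0.4.4, aligned them to GRCm38.p6 with HISAT2 2.0.5 and counted them in SeqMonk. The authors deposited raw counts per gene, not normalized, which were the values used here. Strand and overlap handling of the counting is not given, so overlapping antisense genes cannot be told apart. Separate log2 RPKM tables hold none of the 9 genes and were not used.

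Genotype and day came from the labels. Counts were tested with edgeR 4.0.16 (R 4.3.3; TMM factors, filterByExpr, robust quasi-likelihood test, Benjamini-Hochberg adjustment over all genes tested, threshold 0.05) on the libraries of the groups compared. SE is the log2 fold change over the root of F. The code was tested on simulated data. CPM used TMM factors over all 24 libraries, and lengths came from GENCODE vM21 (GRCm38). Promoter windows came from RefSeq. Named pathway genes are the 3 largest called changes in each direction per step, drawn from 39 genes in 6 lists. Where 1 genotype alone is given, the gene was not among the 3 largest called changes of the other. That does not show a difference between genotypes, and 0 of the 39 genes were called in an interaction test. Trdmt1 and the change of Dnmt3c across Wnt activation in wt were added after their values were seen. The result of 1 of these lists, with the genes of it that the rule names, is not reported here. The likest genes are the 3 with the highest correlation. The members and lists were chosen with earlier results of these data known. The same line was sampled on every day, so line numbers pair libraries across days (correlation of deviations from group means -0.042 to 0.18), whereas equal numbers in wt and het are different lines (-0.075 to 0.051). The p-values measure the spread between lines. Alternatives were other size factors, no count filter, DESeq2 1.42.0, 1 fit of all libraries, a line block and leaving out each line.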

Additional observations from a re-analysis of the deposited data

How the results depend on the processing

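Of 1404 fold changes of the members under the alternatives, 1394 kept their side of the threshold, 7 lost their call, 3 gained one and 0 called values changed sign, while values that were not called could. The number of members called changed by more than 1.5 times in 2 comparisons. For wt day 3 against day 2.5 it was 3, and 1 to 3 when a line was left out, with 1 without wt line 2, where 2 lines per day remained. For het against wt on day 2 it was 0, 1 with no count filter (Tet1), and 0 to 2 when a line was left out, with 2 without wt line 1. The cause was not tested. With the line as a replicate block, which pairs a line with itself across days, the members called were 7 from day 0 to day 2, 6 across Wnt activation, 3 in wt and 2 in het at the last step, and 8 over the course. The block changed no call of a member.

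With the longest transcript as the length, the Tet1 share was 70.5% and 49.5% in wt and 72.4% and 52.6% in het on days 0 and 3. The Tet3 share was 2.83% and 32.5% in wt and 2.60% and 28.2% in het. That of Dnmt3b was 25.8% and 38.8% in wt and 26.2% and 39.5% in het, and that of Dnmt3l 68.4% and 47.8% in wt and 68.1% and 46.9% in het.

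Counts over all genes varied more. For wt day 3 against day 2.5, 3003 genes were called, 4718 with the replicate block and 29 without wt line 2. The counts were, for wt day 2.5 against day 2, 4571 and 2389 without wt line 2, for wt day 2 against day 0, 6888 and 4311 without wt line 3, and for het day 3 against day 2.5, 4731 and 2526 without het line 3. Between genotypes the counts were 0 to 369 on day 0, 1 (without het line 1) to 363 (no count filter) on day 2, 0 to 18 on day 2.5 and 0 to 110 (without wt line 1) on day 3, and for the interactions 0 to 58. Depth was lowest in wt line 2 on day 2.5, where Tet2 had 137 counts.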

Other observations

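Of 5 enzymes that supply the methyl donor or the TET cosubstrate (Idh1, Idh2, Mat2a, Mat2b and Ahcy), 3 fell and 0 rose across Wnt activation in wt, and 3 fell and 1 rose in het, by edgeR's quasi-likelihood test. Of all genes tested at that step, 14.6% fell and 14.8% rose in wt, and 23.1% and 21.8% in het. Mat2a, which makes S-adenosylmethionine, was low throughout in these counts, and whether the counting lost reads of it was not tested. It had 6.21 ± 0.849 CPM in wt on day 0 and 1.17 ± 0.698 on day 2 (mean ± SD, n = 3). Its counts fell to day 2, with log2 fold changes (± SE) of -2.40 ± 0.47 (adjusted p = 0.000811) in wt and -2.71 ± 0.37 (adjusted p = 1.06e-05) in het. In het they rose again across Wnt activation (1.92 ± 0.42, adjusted p = 0.00159) and fell after it (-1.76 ± 0.32, adjusted p = 0.00157).

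Dnmt3c, the paralog of Dnmt3b known from the male germ line, had 9.55 ± 2.09 CPM in wt on day 2 and 1.23 ± 0.820 on day 3. Its reads may partly come from Dnmt3b, with which it shares sequence. It fell across Wnt activation, with log2 fold changes of -1.24 ± 0.30 (adjusted p = 0.00604) in wt and -1.93 ± 0.27 (adjusted p = 3.9e-05) in het, and again over the last step, with -1.69 ± 0.49 (adjusted p = 0.0312) and -1.08 ± 0.36 (adjusted p = 0.0372). Of the pair Dnmt3c and Trdmt1, a tRNA methyltransferase related in sequence to the DNMTs, 1 fell and 0 rose across Wnt activation in each genotype, where 14.6% of all genes fell in wt and 23.1% in het. Among other pathway genes were Cxxc4, higher in het on day 3 than on day 0 (2.37 ± 0.66, adjusted p = 0.00585), Ogt, higher in wt at the last step (0.45 ± 0.14, adjusted p = 0.0399), and Cxxc5, higher in het at the last step (0.48 ± 0.15, adjusted p = 0.03). These genes may also have changed in the other genotype, where they were not among the 3 largest called changes.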
